A study of Mus musculus with 9 samples.

Results

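Glioma cells from the MADM mouse were compared with neural stem cells from normal brain, 2 arrays against 2 of the 9 single-colour Agilent 8x60K mouse gene expression arrays in the series. The labels set the membership. On the tumour side stood 2 samples of glioma cells from a brain tumour of a MADM mouse, with no genotype given, and on the other 2 samples of neural stem cells from the normal brain of wild-type C57BL/6J mice. All 4 were measured as total RNA, 200 ng labelled with Cy3. Arrays of astrocytes from wild-type C57BL/6J brain, also 2, entered the fit for the estimate of the spread only. The labels do not say whether the arrays of a group came from separate cultures, tumours or animals, so p-values measure the spread between these arrays, which may be technical. Tumour origin and mouse background changed together between the groups and cannot be told apart.

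Mosaic analysis with double markers (MADM) makes rare marked mutant cells in a mouse by recombination between homologous chromosomes, and it has been used to start gliomas from single cells of the brain. Neural stem cells renew themselves and give rise to neurons, astrocytes and oligodendrocytes. Where along the body axis a neural cell came from is held in its transcription factors: Otx factors mark forebrain and midbrain, and Hox genes mark hindbrain and spinal cord. The comparison asks which of these stem cell, glial and regional genes differ in tumour cells.

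On these 4 arrays the share of spots well above background ran from 60.1% to 65.0%, and the 75th percentile of the processed signal lay between 467 and 686 intensity units. Levels are log2 of that signal minus the array's 75th percentile, so 0 is a bright gene and about -5 is the lowest level well above background. Over 23405 tested genes the glioma arrays differed from each other by a root mean square of 0.96 and the neural stem cell arrays by 0.97 on the log2 scale, while pairs across the groups differed by 1.25 to 1.46. All 4 arrays were on 1 slide with 1 scan, the glioma arrays in row 2 and the neural stem cell arrays in row 1, so slide row and group cannot be told apart.

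The neural stem cell arrays differed from each other in several gene groups. Array 1 was low in proliferation genes: Mki67, a marker of cycling cells, read 5.90 and 5.66 in glioma cells, against 3.03 and 6.09 in neural stem cells, and the replication helicase gene Mcm5 read 4.47 and 4.36 in glioma cells, against 0.70 and 4.61 in neural stem cells. Array 1 was also high in astrocyte genes, with Gfap, an intermediate filament, at -3.22 and -3.71 in glioma cells and 0.59 and -3.39 in neural stem cells. Mature oligodendrocyte markers, none of which was called, had a mean level of 1.95 and 2.16 on the glioma arrays, against 2.15 on neural stem cell array 1 and -0.21 on array 2. Medians of the lists that differ most between these arrays are therefore given against each neural stem cell array. Y-linked transcripts separated the groups: Eif2s3y read -6.60 and -7.23 in glioma cells and 2.23 and 1.72 in neural stem cells, and Ddx3y read -7.30 and -7.09 in glioma cells and 0.24 and 0.27 in neural stem cells. Neither was well above background on a glioma array. Neither passed limma's test (adjusted p = 0.135 and 0.205), while in a fit of the 4 arrays alone both adjusted p-values were 0.0385. The astrocyte arrays, which enter the spread in the first fit, read -6.13 and 0.66 for Eif2s3y and -5.76 and 1.35 for Ddx3y. Y-linked signal and group cannot be told apart on these 4 arrays, and the sex of the mice was not tested. Xist, the X-inactivation RNA, read 0.45 and 2.31 in glioma cells and 1.87 and 1.11 in neural stem cells.

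Some markers of neural progenitors were present in both groups. Olig2 and Olig1, transcription factors of the oligodendrocyte lineage, were as bright in neural stem cells as in glioma cells, with Olig2 at 4.36 and 4.90 in glioma cells and 4.32 and 4.76 in neural stem cells, and Olig1 at 6.93 and 7.32 in glioma cells and 6.83 and 7.09 in neural stem cells. Nes, the stem cell intermediate filament, read 3.25 and 5.63 in glioma cells and 3.99 and 5.95 in neural stem cells. Sox3 read 4.71 and 5.38 in glioma cells and 5.33 and 5.70 in neural stem cells, and Fabp7, a fatty acid binding protein of radial glia, read 6.87 and 8.21 in glioma cells and 8.71 and 8.40 in neural stem cells. Nes, Sox3 and Fabp7 belong to a list of 24 stem cell and radial glia genes. Of these, 14 were lower in glioma cells without overlap, Fabp7 among them, and 0 higher, against 26.3% and 20.8% of all genes. Sox1, Sox2 and Prom1, given below, were also among the 14. limma called none of 5 tested lymphocyte markers, 3 red blood cell transcripts and 9 endothelial and pericyte markers. Of them 0, 0 and 1 had an unadjusted p under 0.05, against 3548 of all 23405 tested genes.

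A gene was called where limma's p, adjusted by Benjamini and Hochberg's method, was below 0.05 and the change at least 2-fold. This held for 306 of 23405 genes, which is 1.31% of the genes tested: 197 were higher in glioma cells (0.842%) and 109 were lower (0.466%). The glioma and neural stem cell arrays did not overlap on any of the 306, and this was also true of 47.1% of all genes, 20.8% with glioma cells higher and 26.3% with glioma cells lower. The nearest arrays were at least 4-fold, or 2 on the log2 scale, apart for 442 genes higher in glioma cells (1.89%) and 302 lower (1.29%). The median difference over all genes was -0.05, and 3548 of the 23405 had an unadjusted p under 0.05 in limma's fit. Calls rested on few arrays: without neural stem cell array 1 the same fit called 0 genes, with 3420 at an unadjusted p under 0.05, without glioma array 1 it called 17, and without neural stem cell array 2 it called 38. Every call named below was therefore lost when neural stem cell array 1 was left out. An exact permutation of 2 arrays against 2 could not give a two-sided p below 0.333.

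**Figure D1:**
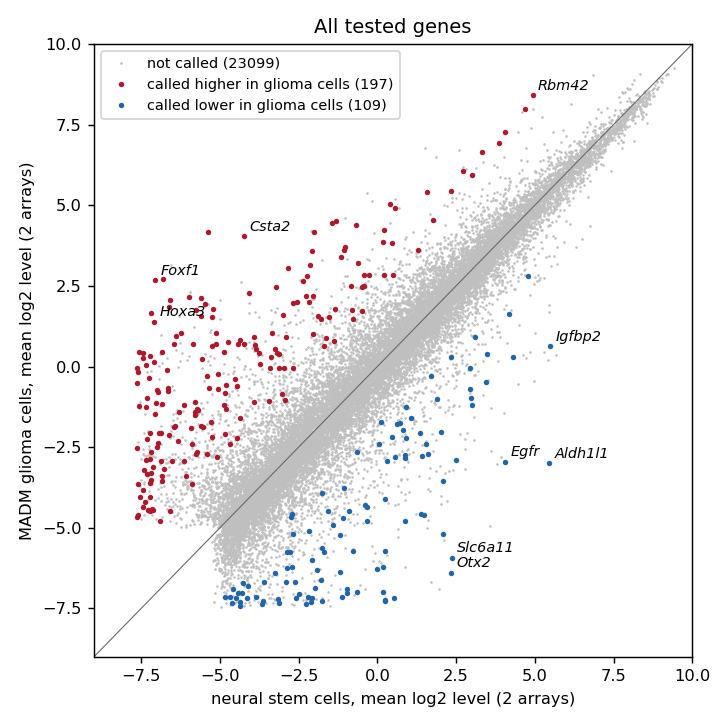
Mean log2 level of each tested gene in MADM glioma cells (vertical axis, 2 arrays) against neural stem cells (horizontal axis, 2 arrays), relative to the 75th percentile of each array. Red points are the 197 genes called higher and blue points the 109 called lower in glioma cells. The named examples lie far from the line of equal levels.

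Some Hox genes, which give cells of the hindbrain and spinal cord their position along the body axis, were bright in glioma cells and dim in neural stem cells. Of 39 Hox genes on the list, 14 passed the filter on dim probes, and 5 were called higher in glioma cells, among them Hoxa3, Hoxa4, Hoxa5 and Hoxd13, against 0.842% of all genes. Another 7 did not overlap in the same direction without passing the test, and 20.8% of all genes did not overlap that way. In neural stem cells 11 of the 14 were below the background limit on both arrays. These passed the filter through the glioma arrays alone, so their direction was set by the filter. The median difference of the 14, 5.48, is for that reason a description. It was 2.42 with normexp background correction, and over all 39 genes with no filter it was 1.25. Hoxa9, which passed in both groups, read -3.08 and -3.32 in glioma cells and -3.21 and -3.28 in neural stem cells and did not separate them.

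The largest bound in the Hox list was that of Hoxa3, and Hoxa5 lies close to it in the same cluster on chromosome 6. Their promoter windows, 250 bases before to 50 after the transcription start (RefSeq, GRCm38.p6), are shown because both genes were called together. Capitals mark CG dinucleotides, the sites of DNA methylation, which was not measured here. Hoxa3 (chr6:52213018-52213317, minus strand) holds 20 and Hoxa5 (chr6:52204538-52204837, minus strand) holds 29. Of the windows of all tested genes with one in the table, 49.2% hold at least as many as Hoxa3 and 23% at least as many as Hoxa5.
Hoxa3: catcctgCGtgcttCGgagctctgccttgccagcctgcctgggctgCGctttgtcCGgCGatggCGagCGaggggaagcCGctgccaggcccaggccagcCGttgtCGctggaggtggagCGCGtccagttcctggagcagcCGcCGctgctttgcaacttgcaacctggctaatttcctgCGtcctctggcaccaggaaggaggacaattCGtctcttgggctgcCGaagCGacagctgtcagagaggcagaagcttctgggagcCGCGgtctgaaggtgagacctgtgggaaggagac
Hoxa5: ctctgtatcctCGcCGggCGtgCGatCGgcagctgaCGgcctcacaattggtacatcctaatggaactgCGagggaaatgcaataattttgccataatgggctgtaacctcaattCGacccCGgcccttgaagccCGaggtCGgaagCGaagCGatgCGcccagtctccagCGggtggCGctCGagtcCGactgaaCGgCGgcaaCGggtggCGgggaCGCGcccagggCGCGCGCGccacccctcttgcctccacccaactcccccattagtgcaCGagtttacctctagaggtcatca

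Hoxa3 read 1.28 and 1.50 in glioma cells, against -6.95 and -7.25 in neural stem cells, at least 104-fold higher against the lowest signal well above background (adjusted p = 0.0221). Both glioma arrays lay 8.23 or more above both neural stem cell arrays. Hoxa5 read -0.48 and 0.38 in glioma cells, against -7.89 and -7.37 in neural stem cells, at least 38.4-fold higher (adjusted p = 0.0207). Hoxa4 read -0.81 and -0.52 in glioma cells, against -5.76 and -4.90 in neural stem cells, at least 23.8-fold higher (adjusted p = 0.0424). These 3 genes were at like levels on both glioma arrays, and others were not. Hoxd4 read -1.89 and 2.31 in glioma cells and -6.87 and -5.25 in neural stem cells, and Hoxd8 -0.99 and 1.74 in glioma cells and -6.91 and -6.92 in neural stem cells. Glioma array 2 was the higher in both, and neither passed (adjusted p = 0.18 and 0.0589). Over 5 neighbouring tested genes that start at Hoxd9 and include Hoxd4, the median of glioma array 1 minus glioma array 2 was -4.20. Hoxd13, at the other end of that cluster, was called, at -2.82 and -2.46 in glioma cells and -7.04 and -7.34 in neural stem cells, at least 6.39-fold higher (adjusted p = 0.0116). Hoxa2 read -2.52 and 0.05 in glioma cells and -7.81 and -6.01 in neural stem cells (adjusted p = 0.0858), and Hoxa7 split the glioma arrays like Hoxd4, at -1.10 and 4.14 in glioma cells, against -4.08 and -3.47 in neural stem cells.

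Developmental factors of other families were called in the same direction. Of 57 homeobox, T-box and forkhead genes listed, 32 were tested and 6 were called, all higher in glioma cells, against 0.842% of all genes. Without overlap 24 were higher and 2 lower, against 20.8% and 26.3% of all genes, while 10 of the 32 were below background in neural stem cells and so had to be higher to be tested. Foxf1, a forkhead factor of mesoderm around the gut, read 2.88 and 2.49 in glioma cells and -7.82 and -6.28 in neural stem cells, a bound of at least 255-fold (adjusted p = 0.0207). Pou4f1, a POU factor of sensory neurons also called Brn3a, was measured on all 4 arrays, at 2.43 and 2.49 in glioma cells, against -3.35 and -3.08 in neural stem cells, a log2 difference of 5.67 ± 0.27 (SE, adjusted p = 0.0087). Six2, a homeobox factor of kidney progenitors, read 2.83 and 3.44 in glioma cells and -7.70 and -5.40 in neural stem cells but did not pass (adjusted p = 0.073). Other calls included Barx1, Isl2 and Msx1, homeobox genes of stomach and jaw, of motor neurons and of limb and skull. Barx1 read -0.87 and -1.96 in glioma cells and -7.00 and -5.58 in neural stem cells (adjusted p = 0.0389). Isl2 read 0.68 and 0.63 in glioma cells and -4.46 and -3.33 in neural stem cells (adjusted p = 0.0402), and Msx1 0.03 and -0.15 in glioma cells and -2.99 and -2.97 in neural stem cells (adjusted p = 0.0474). The nearest arrays of the groups lay 2.82 or more apart in all 3.

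The forebrain factors ran the other way. Of 28 forebrain and midbrain patterning genes listed, 21 were tested, 4 were called lower in glioma cells, against 0.466% of all genes, Otx2 and Otx1 among them, none was called higher, 14 did not overlap with glioma cells lower, against 26.3% of all genes, and 6 did not overlap with glioma cells higher. On neither glioma array were 3 of the 21 well above background, Otx2 and Otx1 among them. These 3 had to be lower to be tested. The median of the 21 was -1.97, -1.40 against neural stem cell array 2 alone and -2.52 against array 1 alone. Otx2, which specifies forebrain and midbrain, read -7.04 and -5.75 in glioma cells, against 2.32 and 2.37 in neural stem cells, at least 177-fold lower and not well above background on either glioma array (adjusted p = 0.0116). Some alternative settings can change the probe that stands for a gene. Over all of them the adjusted p of Otx2 in limma's fit went as high as 0.93, so its call did not hold throughout. With 1 of the 4 arrays left out, its difference on this probe stayed between -9.38 and -8.10. Whether another Otx2 probe gave the high value was not tested. Otx1 read -7.48 and -7.22 in glioma cells, against -2.49 and -2.06 in neural stem cells, at least 7.21-fold lower (adjusted p = 0.0116). The midbrain and cerebellar factor En2 read 2.08 and 2.48 in glioma cells and -0.99 and 0.30 in neural stem cells, the opposite order, and did not pass (adjusted p = 0.0905).

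The window before Otx2 (RefSeq, GRCm38.p6, chr14:48667595-48667894, minus strand, the first of 4 starts listed) is set beside the Hox windows because this gene had the reverse pattern. It holds 6 CG dinucleotides, in capitals, and 84.2% of the tested genes' windows hold at least as many.
Otx2: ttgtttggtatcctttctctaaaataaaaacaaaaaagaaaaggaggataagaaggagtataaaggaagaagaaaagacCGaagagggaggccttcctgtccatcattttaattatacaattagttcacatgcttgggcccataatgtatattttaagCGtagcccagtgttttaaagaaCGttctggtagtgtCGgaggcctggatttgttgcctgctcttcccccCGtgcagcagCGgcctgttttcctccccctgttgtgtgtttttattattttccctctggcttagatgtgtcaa

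**Figure D2:**
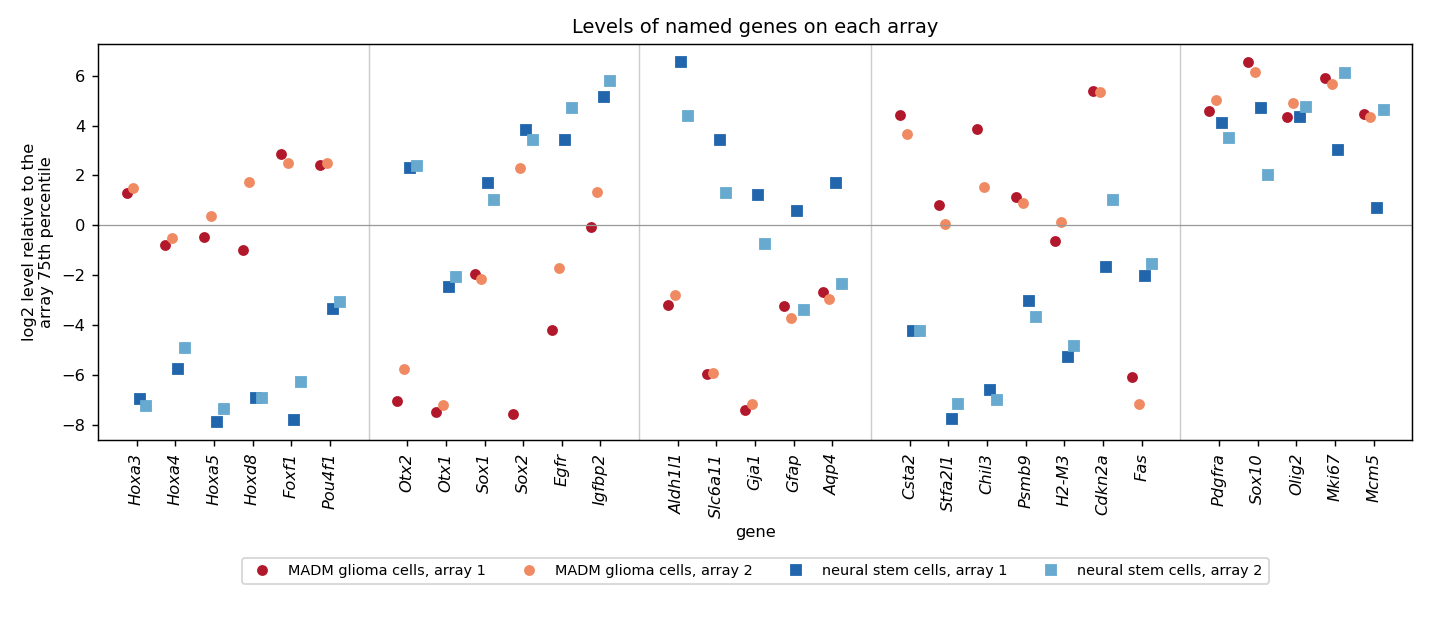
Log2 level of named genes relative to each array's 75th percentile. Each point is 1 array, circles for MADM glioma cells and squares for neural stem cells. The Hox genes, Foxf1 and Pou4f1 lie high in glioma cells, Otx2, Otx1 and Sox1 lie low, and Mki67 and Mcm5 are low on neural stem cell array 1 alone.

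Of the neural stem cell and radial glia genes, 1 passed the test. Of 24 listed and tested, 1 was called (Sox1, lower), 14 did not overlap with glioma cells lower and 0 with glioma cells higher. Of all genes 0.466% were called lower, 26.3% were lower and 20.8% higher without overlap. The median was -2.13, -2.32 against neural stem cell array 1 alone and -1.60 against array 2 alone. It was -1.17 without glioma array 1, -2.01 without glioma array 2 and -1.02 with the stricter filter on dim probes. Sox1, a SoxB1 factor of early neural progenitors, read -1.93 and -2.16 in glioma cells and 1.69 and 1.00 in neural stem cells (difference -3.39 ± 0.42, adjusted p = 0.0399). Sox9, a factor of glial fate, read 0.36 and 1.44 in glioma cells and 3.80 and 3.50 in neural stem cells (adjusted p = 0.0589). Prom1, which encodes the surface protein CD133, read -6.27 and -1.34 in glioma cells and 1.70 and 1.54 in neural stem cells (adjusted p = 0.189). Id1, an inhibitor of differentiation induced by BMP, read -2.74 and -1.42 in glioma cells and 3.70 and 1.55 in neural stem cells (adjusted p = 0.0745).

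Sox2, the SoxB1 factor that maintains neural stem cells, differed between the 2 glioma arrays more than between the groups. It read -7.55 on glioma array 1, not well above background, and 2.29 on glioma array 2, against 3.83 and 3.42 in neural stem cells (difference -6.25 ± 3.02, adjusted p = 0.421). The overlapping long noncoding transcript Sox2ot read -0.23 and 1.05 in glioma cells and 1.58 and 0.88 in neural stem cells, so it did not share that drop. Ccnd2, a D-type cyclin, split the glioma arrays in the same way, at -3.30 and 4.17 in glioma cells, against 3.91 and 5.76 in neural stem cells (adjusted p = 0.472). A group mean of these genes describes neither glioma array.

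Among growth factor receptors 1 was called. Egfr, the receptor of epidermal growth factor on which neural stem cell cultures usually depend, read -4.20 and -1.70 in glioma cells, against 3.44 and 4.68 in neural stem cells, and fell by 7.01 on the log2 scale ± 0.94 (SE, adjusted p = 0.0456). The groups were well separated, with a gap of -5.14 between the nearest arrays. Pdgfra, the receptor of platelet-derived growth factor on oligodendrocyte precursors, read 4.59 and 5.01 in glioma cells and 4.10 and 3.49 in neural stem cells, without overlap, and did not pass (difference 1.01 ± 0.70, adjusted p = 0.584). Erbb3, a receptor of neuregulins, read -2.36 and -3.90 in glioma cells and -5.98 and -7.24 in neural stem cells and did not pass (adjusted p = 0.108). Among the 13 tested of 20 ligands and receptors of both families, Egfr was the only one called, against 0.466% of all genes called lower. Lrig1, a membrane protein that lowers ErbB receptor levels, read -0.06 and 0.63 in glioma cells and 4.14 and 4.48 in neural stem cells and fell by 4.03 ± 0.46 (adjusted p = 0.0324).

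Of the insulin-like growth factor system, 11 of 15 genes were tested and 1 was called lower, against 0.466% of all genes. Without overlap 2 were higher and 2 lower, against 20.8% and 26.3% of all genes, and the median was -0.03. Igfbp2, a secreted binding protein, read -0.07 and 1.32 in glioma cells and 5.16 and 5.80 in neural stem cells (difference -4.85 ± 0.53, adjusted p = 0.0299). Igf2bp1, an oncofetal RNA-binding protein, was not above background in glioma cells, at -7.06 and -6.93 in glioma cells, against -1.46 and 0.14 in neural stem cells, at least 22.1-fold lower (adjusted p = 0.0272). Lamb2, a laminin chain of basement membranes, read -4.85 and -4.27 in glioma cells and 1.69 and 1.06 in neural stem cells (difference -5.94 ± 0.38, adjusted p = 0.0116). It was the only call among 17 tested laminin and basement membrane genes, against 0.466% of all genes called lower. Cavin3, a coat protein of caveolae, read -5.07 and -4.15 in glioma cells and 1.78 and 1.16 in neural stem cells (difference -6.08 ± 0.49, adjusted p = 0.0207). Npepl1, an aminopeptidase-like gene, read -3.00 and -2.41 in glioma cells and 1.32 and 1.89 in neural stem cells (difference -4.31 ± 0.36, adjusted p = 0.0207).

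Astrocyte genes fell to low levels in glioma cells where they were called. Of 20 markers, 19 were tested and 3 were called lower (Aldh1l1, Slc6a11 and Gja1). Without overlap 9 were lower and 2 higher. Slc6a11 and Gja1 were not well above background on either glioma array and so had to be lower to be tested. Of all genes 0.466% were called lower, 26.3% were lower and 20.8% higher without overlap. The mean level of the 19 markers was -0.46 and 0.36 on the glioma arrays, against 3.76 and 1.46 on the neural stem cell arrays. Neural stem cell array 1 thus carried most of the difference. The median was -2.06 against both arrays, -4.00 against array 1 alone and -0.44 against array 2 alone. Fewer cells of a type and less RNA per cell cannot be told apart in these samples. Whether astrocytes among the cells of array 1 took part in the calls was not tested.

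Aldh1l1, a folate enzyme and pan-astrocyte marker, had the largest called fall of genes measured on both sides. It read -3.20 and -2.80 in glioma cells, against 6.54 and 4.39 in neural stem cells, a difference of -8.47 ± 0.81 (SE, adjusted p = 0.0242). The gap between the nearest arrays, glioma minus neural stem cell, was -7.19, so Aldh1l1 was low against either neural stem cell array. Slc6a11, the glial GABA transporter GAT3, read -5.94 and -5.92 in glioma cells and 3.42 and 1.29 in neural stem cells, at least 178-fold lower (adjusted p = 0.0272). Gja1, the gap junction protein connexin 43, read -7.38 and -7.14 in glioma cells and 1.22 and -0.75 in neural stem cells, at least 41-fold lower (adjusted p = 0.0272). Other astrocyte genes were close to the glioma level on neural stem cell array 2: Aqp4, a water channel, read -2.69 and -2.96 in glioma cells and 1.69 and -2.34 in neural stem cells, and the glutamate transporter Slc1a2 read -2.03 and -1.47 in glioma cells and 1.49 and -1.31 in neural stem cells.

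The Aldh1l1 promoter window (RefSeq, GRCm38.p6, chr6:90550543-90550842, plus strand) is given for this leading astrocyte gene, with its 9 CG dinucleotides in capitals. At least as many are held by 77% of the tested genes' windows.
Aldh1l1: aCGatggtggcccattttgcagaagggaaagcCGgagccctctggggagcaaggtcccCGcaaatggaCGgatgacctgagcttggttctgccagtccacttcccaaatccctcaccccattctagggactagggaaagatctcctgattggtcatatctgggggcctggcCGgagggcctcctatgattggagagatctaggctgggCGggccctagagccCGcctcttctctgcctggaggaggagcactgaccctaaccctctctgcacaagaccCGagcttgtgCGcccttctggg

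Microglia and macrophage markers were dim in glioma cells and visible on the neural stem cell arrays, more on array 1. None of the 16 tested of 18 was called by limma, and 7 had an unadjusted p under 0.05, against 3548 of all 23405 genes. Without overlap 10 were lower in glioma cells and 2 higher, against 26.3% and 20.8% of all genes. On neither glioma array were 7 of them well above background, so these 7 had to be lower to be tested. The median difference of the 16 was -2.02, and it was -0.22 over the 9 that passed the stricter filter on dim probes. The mean level of the 16 was -3.52 and -3.48 in glioma cells, against -0.19 and -1.91 in neural stem cells. Trem2, a microglial receptor, read -7.22 and -6.96 in glioma cells and 0.82 and -2.33 in neural stem cells (adjusted p = 0.0623), and the lysosomal protease Ctss read -6.99 and -6.80 in glioma cells and 0.07 and -2.47 in neural stem cells (adjusted p = 0.0535). Cyba, a subunit of the phagocyte oxidase, was called, at -5.64 and -5.80 in glioma cells and 1.22 and -0.75 in neural stem cells, at least 41-fold lower (adjusted p = 0.0463). Microglial markers moved with that call, and their part in it was not tested.

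Oligodendrocyte precursor markers had a mean level of 3.67 and 2.93 on the glioma arrays, against 2.71 and 1.31 on the neural stem cell arrays. limma called none of them (4 had an unadjusted p under 0.05, against 3548 of all 23405 genes). All 20 were tested, 9 did not overlap with glioma cells higher and 1 with glioma cells lower, against 20.8% and 26.3% of all genes. Susd5, a dim member of the list, read -1.97 and -0.97 in glioma cells and -5.52 and -4.63 in neural stem cells (adjusted p = 0.0935). The median was 0.95, 0.31 against neural stem cell array 1 alone and 2.02 against array 2 alone. Sox10, the factor of the oligodendrocyte lineage, read 6.55 and 6.14 in glioma cells and 4.70 and 2.03 in neural stem cells (difference 2.97 ± 0.88, adjusted p = 0.206). Cspg4, which encodes the surface proteoglycan NG2, read 5.90 and 4.84 in glioma cells and 2.52 and 2.68 in neural stem cells (adjusted p = 0.148). Gpr17, a receptor of committed precursors, differed as much within groups as between them, at 7.97 and 5.37 in glioma cells and 7.55 and 3.99 in neural stem cells. Outside the list, Gjc3, a connexin of myelinating glia, was called, at 4.01 and 3.16 in glioma cells and -2.30 and -1.87 in neural stem cells (difference 5.67 ± 0.73, adjusted p = 0.0422).

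Tumour suppressor genes are of interest because mouse gliomas have been made by their loss, although the labels name no gene here. limma called none of 13, with 4 at an unadjusted p under 0.05, against 3548 of all 23405 genes. Trp53 read -1.11 and -1.80 in glioma cells and -1.39 and -0.92 in neural stem cells (difference -0.30 ± 0.49, adjusted p = 0.83), and Nf1 read 1.38 and 1.23 in glioma cells and 1.26 and 1.52 in neural stem cells (difference -0.09 ± 0.30, adjusted p = 0.925). Both overlapped, and whether either probe lies in a deleted stretch is not known, so these values check no genotype. Cdkn2a, which encodes the cell cycle inhibitor p16 and the p53 activator ARF, had the largest difference of the list. It read 5.39 and 5.34 in glioma cells, against -1.65 and 1.00 in neural stem cells, with the nearest arrays 4.34 apart, and missed the threshold (difference 5.70 ± 0.85, adjusted p = 0.0558). Nnt, deleted in part in C57BL/6J, read 3.35 and 3.30 in glioma cells and 2.47 and 3.33 in neural stem cells, and its probe may lie outside the deleted part.

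Genes that p53 activates were lower in glioma cells in most cases, mostly without passing the test. Of 21 tested, 15 did not overlap with glioma cells lower and 0 with glioma cells higher, against 26.3% and 20.8% of all genes. On neither glioma array were 2 of the 21, Fas among them, well above background, so these 2 had to be lower to be tested. The median was -1.09, -1.55 against neural stem cell array 2 alone and -0.58 against array 1 alone. Fas, the death receptor, was the 1 call, against 0.466% of all genes called lower. It read -6.09 and -7.16 in glioma cells and -2.02 and -1.54 in neural stem cells, at least 10.2-fold lower (adjusted p = 0.021). Ddit4l, a stress-induced inhibitor of mTOR signalling, read -7.56 and -4.86 in glioma cells and 0.01 and 1.75 in neural stem cells (adjusted p = 0.0589), and Ccng1, a cyclin G gene, 1.04 and 0.40 in glioma cells and 2.17 and 3.21 in neural stem cells (adjusted p = 0.221). The classic targets Cdkn1a and Mdm2 overlapped between the groups: Cdkn1a read 1.23 and -0.33 in glioma cells and 0.04 and 3.04 in neural stem cells, and Mdm2 3.94 and 3.57 in glioma cells and 3.93 and 4.42 in neural stem cells.

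Polycomb genes, which hold developmental genes silent through histone marks, had no call. Of 13 tested genes of the PRC2 complex and the H3K27 demethylases 0 had an unadjusted p under 0.05 in limma's fit, and of 18 PRC1 subunits 1. Of all 23405 genes, 3548 did. Ezh2, the catalytic subunit of PRC2, read 3.03 and 3.24 in glioma cells and 2.14 and 3.38 in neural stem cells (difference 0.37 ± 0.51, adjusted p = 0.8). Its partner Suz12 read 2.24 and 2.30 in glioma cells and 1.39 and 2.14 in neural stem cells, and Cbx2, a PRC1 reader subunit, read 1.67 and 1.52 in glioma cells and 0.43 and 1.46 in neural stem cells. In all 3 genes neural stem cell array 1, the array low in proliferation genes, was the lowest.

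Of 937 tested genes on the X chromosome, 22 were called higher and 4 lower, against 0.842% and 0.466% of all genes. Luzp4, a leucine zipper gene known in humans as a cancer/testis antigen, read 0.32 and 0.56 in glioma cells and -7.85 and -7.30 in neural stem cells, at least 53.9-fold higher (adjusted p = 0.0087). Nxf3, of the RNA export factor family, read 4.15 and 4.16 in glioma cells and -6.44 and -4.32 in neural stem cells, where 1 of 2 neural stem cell arrays was well above background (adjusted p = 0.0159). Slx and Slxl1 are spermatid genes of the Xlr family. Slx read 2.22 and 0.93 in glioma cells and -5.33 and -5.85 in neural stem cells, and Slxl1 0.87 and -1.21 in glioma cells and -7.86 and -7.34 in neural stem cells. Esx1, a homeobox gene of placenta and testis, read -0.06 and -0.95 in glioma cells and -7.89 and -7.36 in neural stem cells. Xlr3a read -1.67 and -2.18 in glioma cells and -5.84 and -6.02 in neural stem cells, and Xlr3b, an imprinted member of the family measured on all 4 arrays, 2.69 and 2.33 in glioma cells and -0.15 and -0.69 in neural stem cells (difference 2.93 ± 0.36, adjusted p = 0.0399). The Xlr and Slx genes have near-identical copies, so signal cannot be assigned to 1 copy. On chromosome 9, Ddx43, an RNA helicase of testis and tumours, read 2.48 and 1.67 in glioma cells and -7.64 and -5.54 in neural stem cells, at least 168-fold higher (adjusted p = 0.037). Capn6, an X-linked calpain-like gene, read 3.98 and 2.14 in glioma cells and -2.17 and -3.52 in neural stem cells (difference 5.90 ± 0.81, adjusted p = 0.0474). Luzp4, Slx, Slxl1, Esx1, Xlr3a and Ddx43 were not well above background on either neural stem cell array and were tested through the glioma arrays alone. All genes of this paragraph were picked by their values in this comparison, Ddx43 and Capn6 under the rule for the largest differences.

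Stefins, small inhibitors of cathepsin proteases encoded in a cluster on chromosome 16, were called higher in glioma cells for several members. Of 16 stefins and cystatins, 8 were tested and 4 called, all higher, against 0.842% of all genes: Csta2, Csta3, Stfa1 and Stfa2l1. Stfa1 read -1.63 and -2.51 in glioma cells and -6.42 and -7.33 in neural stem cells, and Stfa2, which was not called, read -1.08 and -1.92 in glioma cells and -2.45 and -2.10 in neural stem cells (adjusted p = 0.641). In neural stem cells 3 of the 8 were below the background limit and had to be higher to be tested. Cstdc4 and Cstdc5, which were not on the list, were called too, Cstdc5 at 2.33 and 1.53 in glioma cells and -5.90 and -5.06 in neural stem cells, at least 151-fold higher (adjusted p = 0.0207). Csta2 had the largest called rise of genes measured on both sides, at 4.44 and 3.65 in glioma cells, against -4.25 and -4.23 in neural stem cells (difference 8.28 ± 0.34, adjusted p = 0.0087). Stfa2l1 read 0.80 and 0.07 in glioma cells and -7.75 and -7.15 in neural stem cells, at least 53.7-fold higher (adjusted p = 0.0087). Over 8 neighbouring tested genes from Stfa2l1 to Cstdc5, glioma array 1 lay a median of 6.37 and glioma array 2 a median of 5.66 above the neural stem cell mean. These genes resemble each other closely in sequence, so their probes may share signal. Cstb, the widely expressed stefin on chromosome 10, read 3.75 and 2.81 in glioma cells and 2.88 and 2.14 in neural stem cells and overlapped between the groups. Chil3, a chitinase-like protein of macrophages, read 3.87 and 1.53 in glioma cells and -6.59 and -7.02 in neural stem cells, at least 258-fold higher (adjusted p = 0.0306), while 10 of 16 microglia and macrophage markers were lower without overlap in the same glioma arrays.

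Among the other large differences were genes of unrelated roles. Magel2, an imprinted gene of the Prader-Willi region, read -4.24 and -4.36 in glioma cells and -1.05 and 0.24 in neural stem cells (difference -3.90 ± 0.51, adjusted p = 0.0424). Asb4, a subunit of a ubiquitin ligase, read -7.32 and -7.05 in glioma cells and -0.76 and 1.79 in neural stem cells, at least 49.9-fold lower (adjusted p = 0.0317). Over the alternative settings, some of which can change the probe, the adjusted p of Asb4 in limma's fit went as high as 0.684. Mc3r, a melanocortin receptor, read 2.18 and 2.13 in glioma cells and -6.29 and -5.65 in neural stem cells (adjusted p = 0.037). Bricd5, a BRICHOS domain gene, read 5.42 and 2.90 in glioma cells and -1.95 and -2.09 in neural stem cells (difference 6.18 ± 0.81, adjusted p = 0.0424). None of these overlapped between the groups.

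The Csta2 window (RefSeq, GRCm38.p6, chr16:36221312-36221611, plus strand) is shown as that of the largest rise. It holds 6 CG dinucleotides, in capitals, and 84.2% of the tested genes' windows hold at least as many.
Csta2: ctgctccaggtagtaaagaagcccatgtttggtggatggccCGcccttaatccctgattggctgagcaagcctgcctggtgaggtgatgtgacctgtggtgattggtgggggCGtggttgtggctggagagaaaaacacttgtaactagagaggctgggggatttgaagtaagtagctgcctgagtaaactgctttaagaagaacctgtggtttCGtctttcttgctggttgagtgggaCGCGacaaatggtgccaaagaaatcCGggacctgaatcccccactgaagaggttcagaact

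The windows could be compared over groups of genes. Of the 306 called genes 179 had a window, and of all tested genes 12393. The median number of CG dinucleotides per window was 11 in 119 genes called higher in glioma cells, 14 in 60 called lower and 19 over all tested genes, with quartiles of 9 and 28 over all. In the 57 genes called higher that were not well above background on either neural stem cell array the median was 6. These counts describe sequence and were not tested.

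Antigen presentation genes of MHC class I, which display peptides to T cells, were mostly higher in glioma cells by level. Of 17 tested, 2 were called higher (H2-M3 and Psmb9), against 0.842% of all genes, 12 did not overlap in that direction, against 20.8% of all genes, and 1 in the other. The median was 0.72, 0.74 and 0.69 against neural stem cell arrays 1 and 2 taken singly. Psmb9, an immunoproteasome subunit, read 1.15 and 0.90 in glioma cells and -3.03 and -3.67 in neural stem cells (difference 4.38 ± 0.60, adjusted p = 0.0474), and its partner Psmb8 read 0.04 and 0.91 in glioma cells and -3.12 and -4.72 in neural stem cells (adjusted p = 0.107). H2-M3, a class Ib molecule, read -0.63 and 0.14 in glioma cells and -5.29 and -4.84 in neural stem cells, with 1 neural stem cell array above background (adjusted p = 0.0317). The peptide transporter gene Tap2 read 2.50 and 2.36 in glioma cells and 0.40 and -0.59 in neural stem cells (adjusted p = 0.1). H2-K1, a classical class I molecule, differed little, at 2.82 and 3.16 in glioma cells and 2.72 and 2.66 in neural stem cells. These genes lie in the MHC on chromosome 17. B2m, the class I light chain, is on chromosome 2 and read 4.60 and 4.45 in glioma cells and 3.50 and 3.28 in neural stem cells. The MHC differs between mouse strains, and the part of strain in these values was not tested. limma called none of 14 tested interferon-stimulated genes, with 3 at an unadjusted p under 0.05, against 3548 of all 23405 genes. Ifi27 came closest, at 5.46 and 4.79 in glioma cells and 0.78 and -1.13 in neural stem cells (adjusted p = 0.0546).

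Proliferation genes depended on which neural stem cell array was used. limma called none of 21 mitosis and 21 replication genes (0 and 0 at an unadjusted p under 0.05, against 3548 of all 23405 genes). The median of the mitosis genes was 1.22 against both arrays, 2.73 against neural stem cell array 1 alone and -0.29 against array 2 alone, and that of the replication genes was 1.18 against both, 2.75 against array 1 alone and -0.44 against array 2 alone. The sign thus turned with the array. Ccnd1, the D-type cyclin induced by growth factors, read 8.59 and 7.39 in glioma cells and 2.97 and 6.95 in neural stem cells (adjusted p = 0.396). Ccnd3 was above both neural stem cell arrays, at 6.22 and 6.61 in glioma cells and 4.18 and 4.94 in neural stem cells (adjusted p = 0.107), as was the MAPK-responsive gene Phlda1, at 4.60 and 4.32 in glioma cells and 2.47 and 2.94 in neural stem cells (adjusted p = 0.108). The list of RAS-MAPK output genes had no call among 17 tested (2 at an unadjusted p under 0.05), and its median also changed sign, 1.42 against array 1 alone and -0.53 against array 2 alone.

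The Notch, Hedgehog, BMP, Wnt and cholesterol synthesis lists had no calls in limma's fit, with 6, 5, 4, 5 and 3 genes at an unadjusted p under 0.05. Of all 23405 genes 3548 had an unadjusted p that low, and 26.3% were lower and 20.8% higher without overlap. Of Notch pathway genes 9 of 18 tested were lower without overlap and 1 higher. Notch3, a receptor, read -2.91 and -1.19 in glioma cells and 3.88 and 1.82 in neural stem cells (adjusted p = 0.0761), and the Notch effector Hes5 read 4.55 and 4.14 in glioma cells and 7.97 and 5.56 in neural stem cells (adjusted p = 0.504). Of Hedgehog genes 6 of 13 were lower without overlap and 1 higher, with Gli2, a transcriptional effector, at -4.59 and -6.16 in glioma cells and -1.30 and -2.55 in neural stem cells (adjusted p = 0.115). Of BMP pathway genes 7 of 16 were lower and 1 higher, with the receptor Bmpr1b at -4.23 and -4.03 in glioma cells and 1.23 and 0.53 in neural stem cells (adjusted p = 0.0595). Of Wnt genes 8 of 25 were lower and 6 higher without overlap, near the share of all genes. Cholesterol synthesis genes had 10 of 18 lower without overlap and 0 higher, with a median of -0.52, -0.32 against neural stem cell array 1 alone and -0.87 against array 2 alone. Mvd, a mevalonate pathway decarboxylase, read 1.69 and 1.34 in glioma cells and 3.01 and 2.71 in neural stem cells (adjusted p = 0.129).

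**Figure D3:**
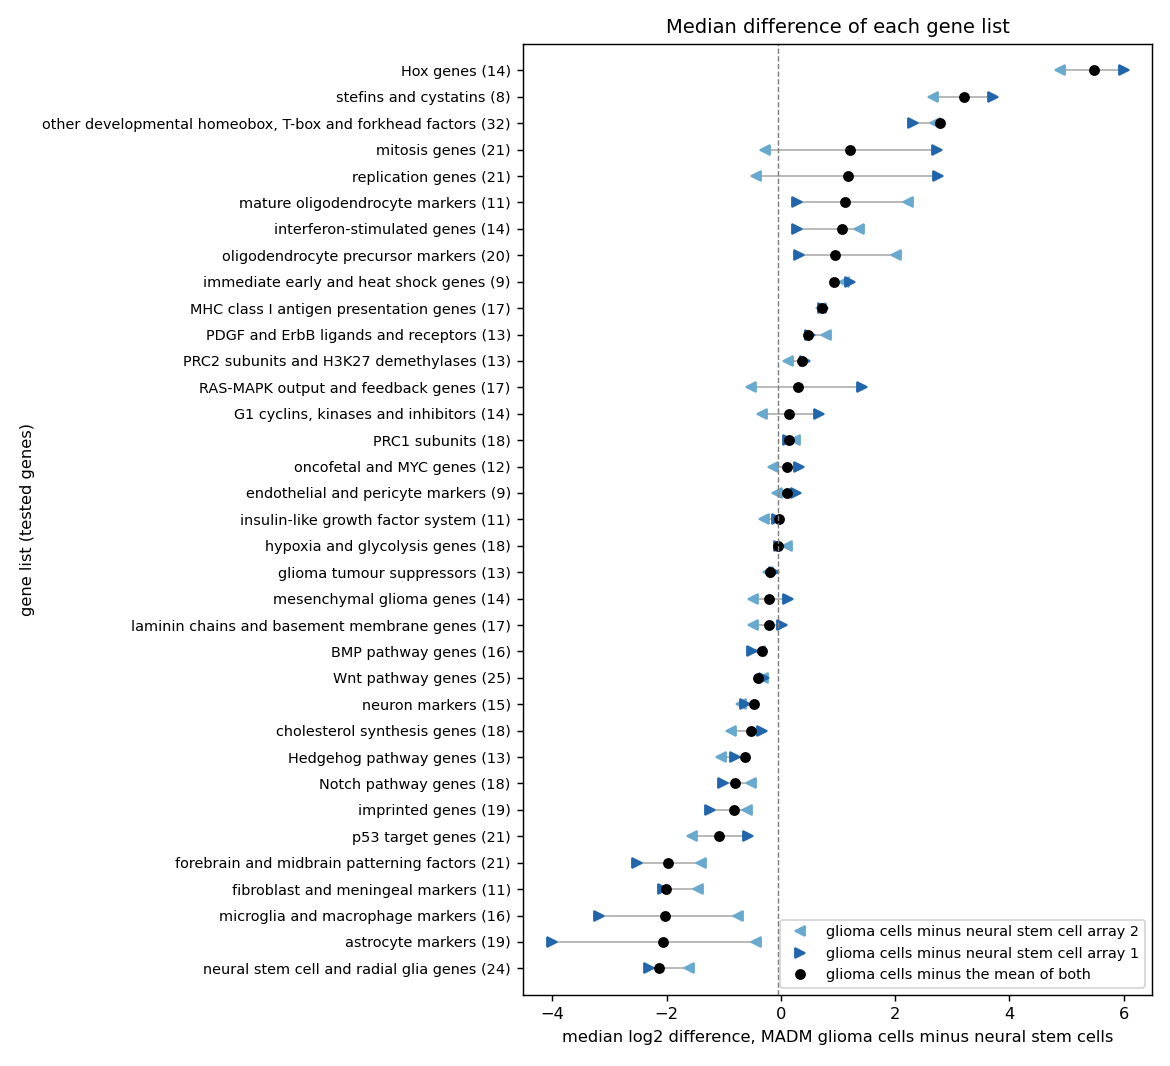
Median log2 difference, MADM glioma cells minus neural stem cells, of each list with at least 8 tested genes (number in brackets). Black points use both neural stem cell arrays, and triangles use 1 of them. The dashed line is the median of all genes, -0.05. Mitosis and replication medians lie on opposite sides of 0 for the 2 arrays, and 11 of the 14 Hox genes passed the filter through glioma cells alone.

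A run of neighbouring genes on chromosome 7 was higher in glioma cells together. It was found after the values were seen, by a rolling median over 9 consecutive tested genes of at least 1.5 from the neural stem cell mean, so its size is a description and has no test. On glioma array 1 the run held 27 genes from Alkbh6 to Haus5, over 340 kb (probe positions 31099185 to 31438911 in the files, which name no build). In these 27 genes the median difference from neural stem cells was 2.96 on glioma array 1 and 3.56 on glioma array 2, while the neural stem cell arrays differed from each other by a median of 0.08. These 27 were chosen on the same contrast, so nothing is read from their counts. In 25 of them the arrays did not overlap, with glioma cells higher, against 20.8% of all genes. In 20 the nearest arrays were at least 4-fold apart and 13 were called, against 1.89% and 0.842% of all genes. The choice of the run favours such counts. These 13 are part of the 22 genes called higher on chromosome 7.

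The genes of the run share their place more than their function. Rbm42, an RNA-binding protein, read 8.34 and 8.48 in glioma cells, against 4.97 and 4.89 in neural stem cells, a difference of 3.48 ± 0.25 (SE, adjusted p = 0.0159). Cox6b1, a subunit of cytochrome c oxidase, read 6.97 and 7.54 in glioma cells, against 4.02 and 4.10 in neural stem cells (difference 3.20 ± 0.30, adjusted p = 0.0235). Kmt2b, a histone H3K4 methyltransferase, read 5.83 and 6.29 in glioma cells, against 2.71 and 2.74 in neural stem cells (difference 3.33 ± 0.29, adjusted p = 0.0207). Each of these widely expressed genes was tight within both groups. Lin37, a subunit of the DREAM cell cycle repressor complex, read 5.27 and 5.55 in glioma cells and 1.70 and 1.45 in neural stem cells (difference 3.84 ± 0.30). Zbtb32, a zinc finger repressor of lymphocytes, was near background in neural stem cells and had the largest difference of the run, at 1.86 and 1.68 in glioma cells and -5.47 and -4.94 in neural stem cells (difference 6.98 ± 0.80). Nfkbid, a nuclear regulator of NF-kappaB, read 2.00 and 1.99 in glioma cells and -1.66 and -2.70 in neural stem cells, and Aplp1, an amyloid precursor-like protein of neurons, 6.89 and 6.52 in glioma cells and 3.96 and 1.24 in neural stem cells. The exceptions were Proser3, at 6.21 and 5.78 in glioma cells and 6.27 and 5.97 in neural stem cells, and the microglial adaptor Tyrobp, at -3.68 and -1.77 in glioma cells and 0.98 and -1.88 in neural stem cells.

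Psenen, a gamma-secretase subunit, and U2af1l4, a splicing factor, are transcribed away from each other within the run and both were higher in glioma cells. Psenen read 7.77 and 8.19 in glioma cells and 4.81 and 4.54 in neural stem cells (difference 3.30 ± 0.29, adjusted p = 0.0207), and U2af1l4 read 6.74 and 7.12 in glioma cells and 3.90 and 3.83 in neural stem cells (difference 3.07 ± 0.27, adjusted p = 0.0207). The window of U2af1l4 (RefSeq, GRCm38.p6, chr7:30563090-30563389, plus strand), which overlaps a start of Psenen on the other strand, is shown as a promoter of the run, with its 25 CG dinucleotides in capitals. At least as many are held by 33.6% of the tested genes' windows.
U2af1l4: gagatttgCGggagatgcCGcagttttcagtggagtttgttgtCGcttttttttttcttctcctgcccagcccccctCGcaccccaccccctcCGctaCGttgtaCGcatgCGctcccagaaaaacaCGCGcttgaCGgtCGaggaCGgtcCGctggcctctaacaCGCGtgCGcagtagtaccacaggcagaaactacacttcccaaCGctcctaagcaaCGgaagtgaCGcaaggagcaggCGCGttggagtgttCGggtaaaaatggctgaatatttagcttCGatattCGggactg

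On glioma array 2 the run reached further on both sides. There it held 83 genes over 1394 kb. In the 30 genes before the shared stretch the median difference from neural stem cells was 3.29 on glioma array 2 and -0.34 on glioma array 1, and in the 26 genes after it 3.12 on glioma array 2 and 0.29 on glioma array 1. Capns1, the small calpain subunit, shows the pattern before it, at 5.13 on glioma array 1 and 8.69 on glioma array 2, against 5.19 and 5.39 in neural stem cells. Polr2i, a subunit of RNA polymerase II, read 4.95 on glioma array 1 and 8.61 on glioma array 2, against 4.72 and 4.73 in neural stem cells. Clip3, the last gene before the shared stretch, read 3.90 on glioma array 1 and 8.30 on glioma array 2, against 5.50 and 3.69 in neural stem cells, although the next gene, Alkbh6, was high on both glioma arrays. After the stretch Usf2, a transcription factor, read 4.11 on glioma array 1 and 7.51 on glioma array 2, against 4.40 and 4.77 in neural stem cells, and Tmem147, a membrane protein, 5.20 on glioma array 1 and 7.78 on glioma array 2, against 4.01 and 4.03 in neural stem cells. In the 30 genes beyond either end the median difference on glioma array 2 was -0.33 before and 0.03 after. On that array 3 of the genes before and 2 of those after lay at least 1 above the neural stem cell mean. Zfp84 and Zfp30 lay 3.59 above it before the run, and Scgb2b2, the first gene after the run, 6.08. The ends of the run come from the rolling median over 9 genes and are not exact. DNA copy number was not measured.

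**Figure D4:**
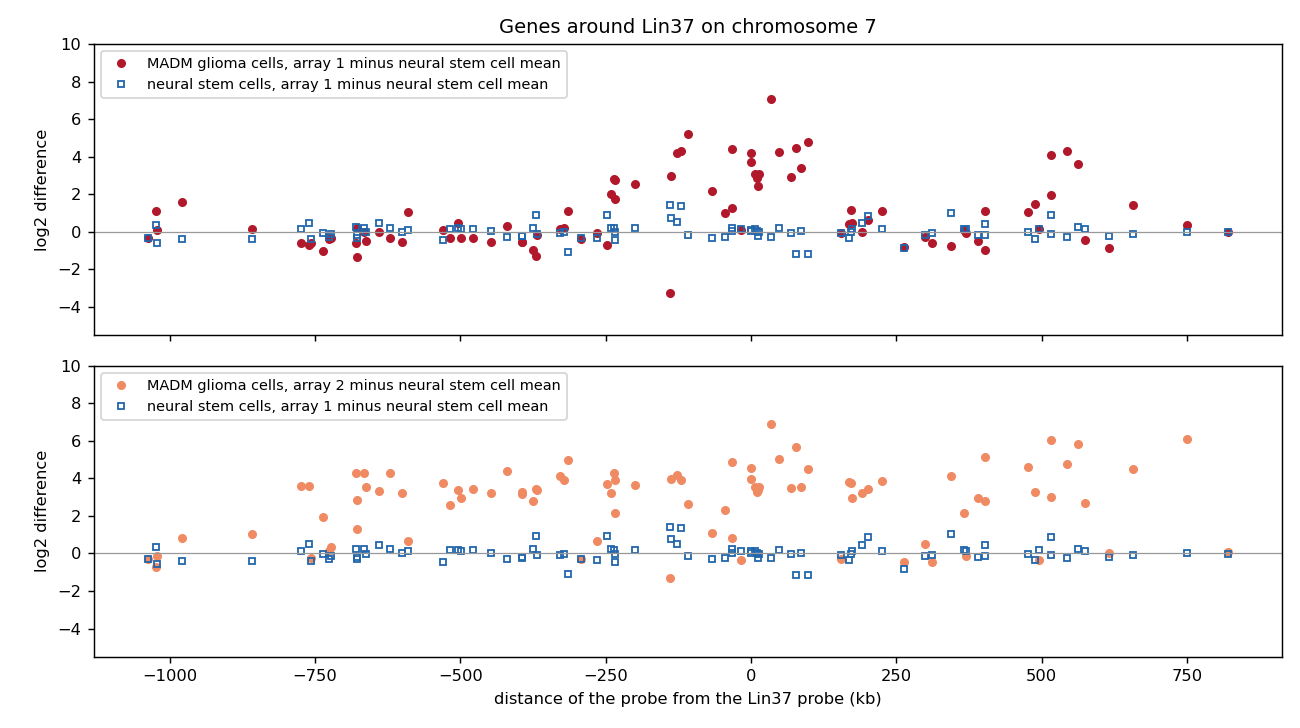
Log2 difference of each tested gene from the neural stem cell mean against the distance of its probe from that of Lin37 on chromosome 7 (kb), for MADM glioma array 1 (top) and array 2 (bottom), with neural stem cell array 1 as open squares. Points of glioma array 1 rise around Lin37, from Alkbh6 to Haus5, and those of glioma array 2 over a wider stretch of 1394 kb.

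Other stretches of chromosome 7 differed between the glioma arrays. Over 26 genes from Aamdc to Map6, the median difference from the neural stem cell mean was 1.61 on array 1 and -0.15 on array 2. Over 7 genes from Shank2 to LTO1, next to Ccnd1, it was 1.83 on array 1 and -0.59 on array 2. By the same rule glioma array 1 had 14 higher and 5 lower runs of 5 or more genes and glioma array 2 had 15 higher and 3 lower. The higher runs found on both glioma arrays included gene families: the Hoxa and Hoxd clusters, the stefins, the Slx families on the X chromosome, MHC genes from Psmb9 to H2-Ob on chromosome 17 and protocadherins on chromosome 18. Between the neural stem cell arrays the rule found 3 higher and 4 lower runs, among them the replication-dependent histone genes on chromosome 13, which were lower on array 1.

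Chromosome 19 was lower in glioma cells as a whole. The median difference of its 716 tested genes was -0.62, with -0.67 on glioma array 1 and -0.57 on glioma array 2, and it ran from -0.75 to -0.52 over the 4 pairs of arrays. The medians of the other 18 autosomes and the X chromosome lay between -0.14 and 0.15. On chromosome 19, 77.4% of tested genes were lower in the mean of glioma cells, against 40.2% to 61.0% on the other chromosomes, and 57.0% were lower without overlap, against 26.3% of all genes. Genes of a chromosome are not replicates, so this is a description of these arrays. When the 716 genes were split by position into 10 groups of equal size, give or take a gene, the median of each was below 0, from -0.76 to -0.27. The difference between the neural stem cell arrays was -0.10 there and from -0.16 to -0.05 over all chromosomes.

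Of chromosome 19, 10 genes were called lower and 6 higher, against 0.466% and 0.842% of all genes. Cpt1a, the carnitine palmitoyltransferase that admits fatty acids to mitochondria, read -0.90 and -1.03 in glioma cells, against 3.27 and 2.67 in neural stem cells (difference -3.93 ± 0.31, adjusted p = 0.02). Rorb, an orphan nuclear receptor, read -4.59 and -2.52 in glioma cells, against 2.62 and 1.53 in neural stem cells (difference -5.63 ± 0.76, adjusted p = 0.0456). Tm7sf2, a sterol reductase of cholesterol synthesis, read 1.59 and 1.64 in glioma cells, against 4.25 and 4.09 in neural stem cells (difference -2.55 ± 0.35, adjusted p = 0.0456). Fas, given above, also lies on this chromosome, as does the forebrain factor Emx2, at -4.41 and -2.73 in glioma cells and 0.30 and 0.07 in neural stem cells (adjusted p = 0.0754). Calls in the other direction included the olfactory receptor gene Olfr1466, at 4.01 and 4.92 in glioma cells and -1.10 and -1.79 in neural stem cells (difference 5.91 ± 0.55, adjusted p = 0.0216). Chromosome 15 differed between the glioma arrays, with medians of 0.30 on array 1 and 0.03 on array 2, and chromosome 3 likewise, with -0.22 and -0.01.

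**Figure D5:**
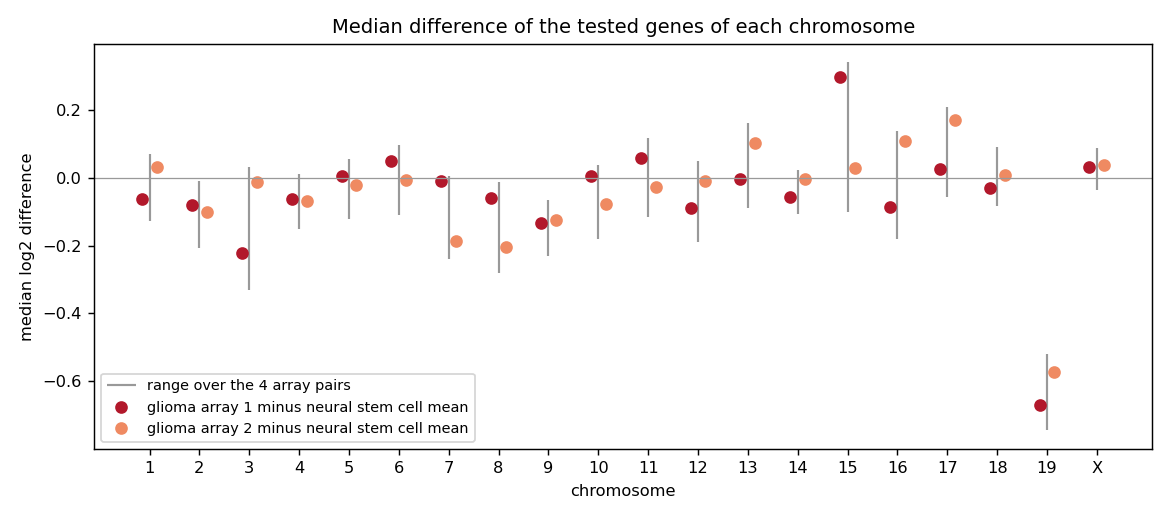
Median log2 difference of the tested genes of each chromosome, each MADM glioma array minus the mean of the neural stem cell arrays. Grey lines span the 4 pairs of arrays. Chromosome 19 lies at -0.67 and -0.57, apart from the others, and chromosome 15 is raised on glioma array 1 alone.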

How the data were processed

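Single-colour Agilent arrays of 2 MADM glioma cell, 2 neural stem cell and 2 astrocyte samples were used. The deposited files give spot intensity as read by the scanner. Agilent Feature Extraction 10.7.1.1 had subtracted background and detrended the signal, per the file headers, while the submitters' processing notes name 10.7.3.1. The authors' deposited table of log2 values lay within 0.01 of the log2 processed signal for 99.7% to 99.8% of probes, with no scaling between arrays, no centring and column medians of 5.09 to 5.80. It was used as an alternative only.

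Of 59305 spots per array that were not controls, 96 to 164 outliers were left out, none was saturated, and spots of a probe were averaged. Of 55669 probes kept, 27232 were named by accession, 3579 by symbol and 565 by synonym through RefSeq names of GRCm38.p6, and 24293 kept the file's name. Probe positions are the files' own. Of 31301 probes compared, 9.05% lay inside their gene's GRCm38.p6 span, so another build was used. The number of arrays limits the precision.

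Values were log2 of processed signal minus each array's 75th percentile. A probe was tested if well above background on both arrays of 1 group, and a gene was its brightest tested probe. One limma 3.58.1 fit (R 4.3.3) of 6 arrays, with 3 residual degrees of freedom, gave two-sided p-values with Benjamini-Hochberg adjustment over all 23405 genes. A bound compares the mean of the brighter group with that of the dimmer one after any dim signal below its array's lowest well above background was raised to it. Alternatives were normexp with an offset of 50, quantile scaling, the authors' table, other filters, the mean of probes, the 4 arrays alone, a replicate block, an intensity trend and leaving out each array.

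The comparison and its 38 gene lists were chosen with earlier results of these data known. Named genes are Ezh2, Trp53, Nf1, Pdgfra, Nnt, Sox2, Nes, Sox10, Olig2, Gfap and Aldh1l1, the 8 largest rises and falls measured on all 4 arrays, the 5 largest bounds each way, and from every list as many as 3 called genes each way or, with none called, the 2 of smallest p. The text gives some of these, and other genes in it were added after their values were seen. Some named genes are not reported here. Files were read with Python 3.11.15, numpy 2.4.6 and pandas 2.3.3, and figures were drawn with matplotlib 3.10.9.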

Additional observations from a re-analysis of the deposited data

How the results depend on the processing

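Against 306 calls (197 higher in glioma cells, 109 lower), normexp gave 174 (116, 58), the 4 arrays alone 111 (81, 30), no filter 131 (90, 41), the stricter filter 59 (43, 16) and the replicate block 115 (77, 38). Quantile scaling, the authors' table, the mean of probes and the intensity trend gave 254 to 299. With 1 array left out the counts ran from 0 to 229 (0 to 127 higher, 0 to 102 lower). A group left with 1 array is assumed to vary like the others, and leaving out an astrocyte array is the same as using the 4 arrays alone. Of the 306 genes, 147 were also called with normexp, 59 with the stricter filter, 101 with the replicate block, 20 without neural stem cell array 2, 7 without glioma array 1 and 0 without neural stem cell array 1. The percentage of calls that were higher was 64.4%, 73.0% with the 4 arrays alone and 72.9% with the stricter filter.

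Genes whose nearest arrays lay at least 2 apart numbered 442 higher and 302 lower, 184 and 110 with normexp, and 189 and 130 with the stricter filter. The chromosome 19 median was -0.45 with normexp and -0.68 to -0.57 with 1 array left out, and the chromosome 7 run, an analysis added after seeing the data, was 2.96 to 3.56. The Hox median was 2.42 with normexp, 1.25 with no filter (39 genes), 0.94 with the stricter filter (3 genes) and 4.38 to 7.27 with 1 array left out. The cause of these moves was not tested, apart from the filters, which change the genes counted.

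Same-numbered arrays did not deviate together (correlations of replicate differences 0.05, -0.01 and 0.14), so the paired fit with the replicate block is given only here. Of 59 named genes called, 45 kept the call with normexp, 53 with quantile scaling, 52 with the authors' table, 31 with the 4 arrays alone and 32 with the replicate block, and none of the 59 turned its sign. Slide and scan could not be used as a block because all 6 arrays share them. Signals not above background limit falls and rises to bounds.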
